A study of Mus musculus with 8 samples.

Results

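A set of 8 mouse miRNAs known from blood cells was followed in liver injured with CCL4. They were mmu-miR-142-3p, mmu-miR-142-5p, mmu-miR-223, mmu-miR-146a, mmu-miR-146b, mmu-miR-150, mmu-miR-155 and mmu-miR-342-3p, chosen by name for their known cell types from the 567 mouse miRNAs on the array. Male C57BL/6J mice, 8 weeks old at the start, received intraperitoneal injections of CCL4, carbon tetrachloride, dissolved in olive oil. Control mice of the same strain, sex and age received olive oil alone on the same schedule, which began with injections more than once a week for 4 weeks and then went over to weekly ones. Livers were collected after 4, 6 and 8 weeks, and total RNA of whole liver tissue was labelled with a single dye, Cy3, and hybridized to Agilent mouse miRNA arrays. Of the 8 arrays, 3 were of olive oil mice, 1 for each week, and 5 of CCL4 mice, namely a single array for 4 weeks and a pair for each later week. Whether the RNA was that of 1 mouse or pooled is not in the labels. Hence n is the number of arrays, p-values over all weeks measure the spread between these arrays, and their number limits the precision of every value. For single weeks and the interaction of treatment and week, the spread was common to all miRNAs and came from the CCL4 pairs of 6 and 8 weeks alone. Those p-values and intervals do not measure the spread of each miRNA.

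CCL4 is converted to a reactive radical in hepatocytes, which die around the central veins, and repeated doses draw in leukocytes and lead to fibrosis. miRNAs are short RNAs that guide silencing proteins to matching sites in mRNAs, mainly through the seed, bases 2 to 8 from the 5′ end, and some are made almost only in blood cells. miR-223 is abundant in neutrophils and monocytes, and both arms of the miR-142 hairpin are found in nearly all hematopoietic cells. miR-150 and miR-342-3p are best known from lymphocytes. miR-146a, miR-146b and miR-155 are induced in activated leukocytes, miR-146a and miR-155 through NF-κB, and miR-146a acts back on that pathway by targeting the adaptors TRAF6 and IRAK1.

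Mature sequences of 7 of the 8 miRNAs were matched by name in RefSeq (mouse assembly GRCm38.p6). They are shown because the seed decides which members can share targets and because the closest pair differs in few bases. The seed is in capitals.
mmu-miR-223: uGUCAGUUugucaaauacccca
mmu-miR-142-3p: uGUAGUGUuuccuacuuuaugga
mmu-miR-142-5p: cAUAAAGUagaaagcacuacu
mmu-miR-342-3p: uCUCACACagaaaucgcacccgu
mmu-miR-146a: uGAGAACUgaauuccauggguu
mmu-miR-146b: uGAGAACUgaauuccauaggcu
mmu-miR-155: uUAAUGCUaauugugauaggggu

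Only miR-146a and miR-146b shared a seed. They differed in 2 of 22 bases, G18A and U21C (miR-146a first, positions counted from the 5′ end), so a probe for either can in principle capture part of the other. The remaining 5 printed seeds each occurred in 1 mature miRNA among the 1679 of the RefSeq table. The miR-142 arms come from 1 hairpin on the plus strand, miR-142-5p at chr11:87756867-87756887 and miR-142-3p at chr11:87756903-87756925, 15 bases apart. miR-223 lies on the plus strand at chrX:96242884-96242905 and miR-342-3p on the plus strand at chr12:108658680-108658702. miR-146a lies on the minus strand at chr11:43374435-43374456, miR-146b on the plus strand at chr19:46342790-46342811 and miR-155 on the plus strand at chr16:84714143-84714165. The array read each member with 2 probes of 10 spots each, and no spot of a member was saturated.

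The value of a miRNA on an array was the background-subtracted brightness summed over its probes, called the signal here, with a flag for detection set by the scanner software. To compare arrays, a scaled signal was formed by dividing by the 75th percentile over the 567 miRNAs of that array, and log2 was taken. The percentile was higher with CCL4, 6.53 to 11, than with olive oil, 4.71 to 6.48, so the division lowered every CCL4 value against its control, and what is read as no change depends on it. On each olive oil array it lay below every detected signal, the lowest of which were 6.26 to 7.80. On each CCL4 array it lay above the lowest detected signal, 0.139 to 8.16. The divisor of the controls was thus set by miRNAs below detection. The software detected 117 to 158 miRNAs on an array, most on the CCL4 array of 4 weeks, and 133 that were detected on at least 3 arrays were tested. A single slide carried all 8 arrays and a single scan read them, so neither differed between the groups. The position on the slide did differ. It was 1 for both arrays of 4 weeks, olive oil at 6 weeks and replicate 1 of CCL4 at 6 weeks. For replicate 2 of CCL4 at 6 weeks and all arrays of 8 weeks it was 2. Position thus largely followed week and separated the CCL4 arrays of 6 weeks. The tissue was checked by miR-122, the main miRNA of hepatocytes, which had a signal of 18497 to 35101 on every array. In bulk tissue, fewer cells of a type and less RNA per cell cannot be told apart.

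Of the 8 members, 5 were detected on all 8 arrays and tested: miR-223, miR-142-3p, miR-142-5p, miR-342-3p and miR-146a. miR-146b and miR-155 were detected on a single array, the CCL4 array of 4 weeks, and miR-150 on none. Over all weeks, limma with week as a factor called 1 of the 5 lower in CCL4 liver, miR-146a, and 0 higher (also 0 at an unadjusted p under 0.05), where 35.3% of the 133 tested miRNAs were called lower and 13.5% higher. The call of miR-146a was absent without scaling, when miR-223 was the 1 member called, higher by 0.92 on the log2 scale. The median log2 difference was -0.11 for the 5 members and -0.32 for all 133. At 4 weeks miR-223 was 2.21-fold higher, the sole member called higher at any week with this scaling, while miR-142-3p was also called at 4 weeks with 3 other scalings.

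**Figure D1:**
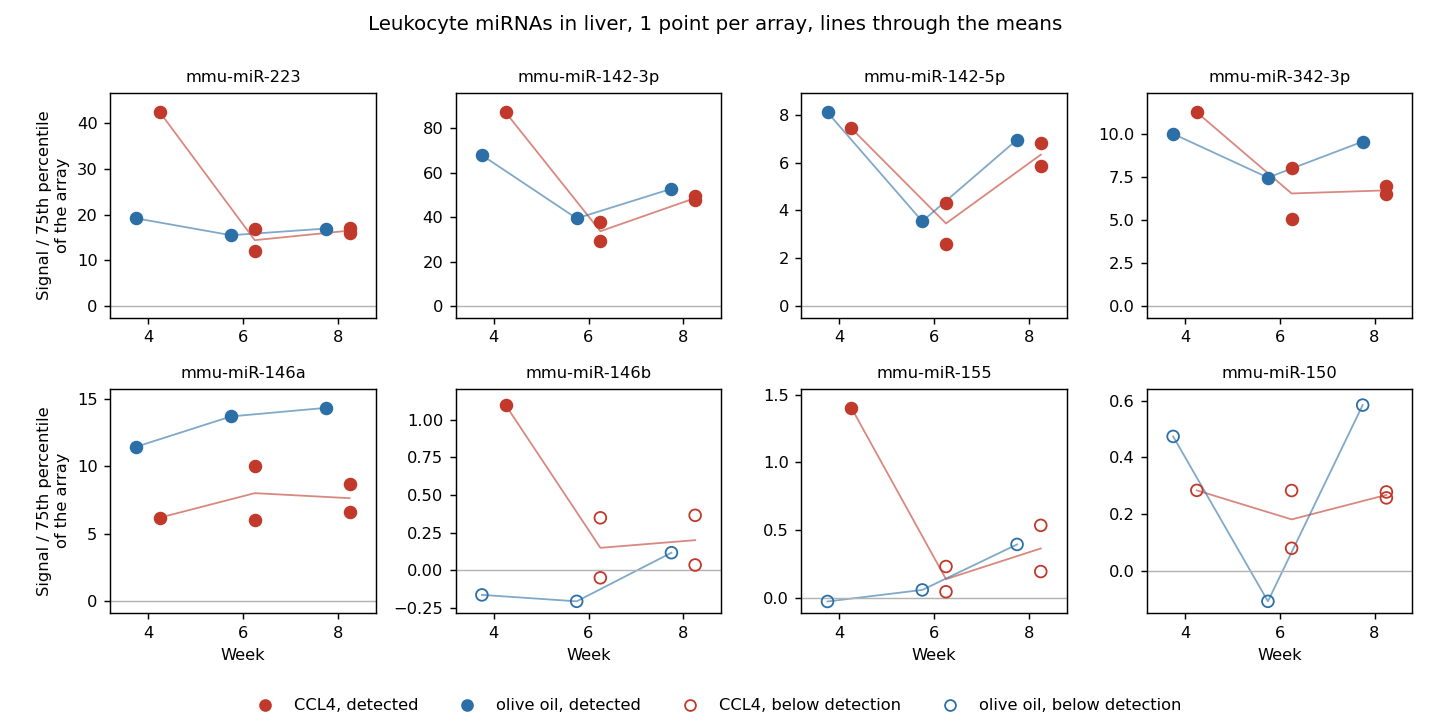
The scaled signal (signal divided by the 75th percentile of the array, linear axis, a separate range in each panel) of the 8 miRNAs is plotted against week, 1 point per array, with CCL4 in red and olive oil in blue, filled points detected, open points below detection, and lines through the means. miR-223 stood at 42.4 on the CCL4 array of 4 weeks against at most 19.2 elsewhere, and all 5 CCL4 arrays lay below all 3 olive oil arrays for miR-146a, an order that depends on the scaling (without it, the difference at 4 weeks was 0.01 on the log2 scale).

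miR-223 stands for myeloid cells, and its reading at 4 weeks set it apart. With CCL4, miR-223 had a signal of 403 at 4 weeks, 78.2 and 127 at 6 weeks, and 188 and 138 at 8 weeks. With olive oil, its signals were 98, 72.9 and 110 in the order of the weeks. The CCL4 array of 4 weeks was the highest by a wide margin, and the other CCL4 arrays overlapped the controls after scaling. The scaled signals were 42.4, then 12 and 16.8, then 17.1 and 15.9 with CCL4, and 19.2, 15.5 and 17 with olive oil. At 4 weeks the difference was 2.21-fold, with a 95% interval of 1.41 to 3.46 and an adjusted p of 0.00335 in limma, where 12% of all tested miRNAs were called higher at that week. This rests on 1 array per treatment, and the interval borrows its spread from the CCL4 pairs of 6 and 8 weeks. The pair of probes gave 2.26 and 2.00-fold, and before scaling they gave 4.21 and 3.72-fold. Among the 133 tested miRNAs the difference ranked 9 from the highest at 4 weeks. With normexp background correction it was 1.15 on the log2 scale with an adjusted p of 0.0509 in limma.

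At the later weeks the level of miR-223 was near that of its controls. The fold was 0.917 at 6 weeks with an interval of 0.622 to 1.35 and 0.972 at 8 weeks with an interval of 0.660 to 1.43, and limma gave adjusted p of 0.718 and 0.962. These intervals leave room for a change of about the size of the gap between the CCL4 arrays of 6 weeks, which differed by 1.41-fold. Without scaling the direction at both weeks turned, to log2 differences of 0.45 and 0.55. Over all weeks the log2 difference was 0.25 (SE 0.231), and limma gave an adjusted p of 0.379. The exact two-sided permutation test over 56 splits of the arrays gave p = 1. Without either array of 4 weeks the difference was -0.08. The test of an interaction of treatment and week, which asks whether the effect differs between weeks, gave miR-223 an adjusted p of 0.0802 in limma. It passed with a replicate block (limma adjusted p = 0.0337) and among miRNAs detected on all 8 arrays (0.0247). It also passed without either CCL4 array of 6 weeks, but then the pair of 8 weeks alone set the spread common to all miRNAs. It did not pass without either CCL4 array of 8 weeks, when the pair of 6 weeks alone set it. Leaving out an olive oil array or the CCL4 array of 4 weeks gave 0.0571 to 0.907. As first set, the test called 0 of the 5 members and 6.02% of all tested miRNAs. Before adjustment miR-223 was the 1 member under 0.05, with a limma p of 0.00603. The adjusted p of the other members ran from 0.734 to 0.989 in limma.

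The pan-leukocyte hairpin gave readings for both of its arms. miR-142-3p had signals of 827 at 4 weeks, 192 and 285 at 6 weeks, and 544 and 414 at 8 weeks with CCL4, against 346, 185 and 342 with olive oil in the same order. The highest signal again lay on the CCL4 array of 4 weeks. After scaling, that array exceeded its control of 4 weeks and the other 4 CCL4 arrays were under theirs. Its fold was 1.28 at 4 weeks (interval 0.821 to 2.01), 0.847 at 6 weeks (0.575 to 1.25) and 0.921 at 8 weeks (0.625 to 1.36), and none of these passed in limma. At 4 weeks the call depended on the scaling: with the 75th percentile of only the 113 miRNAs found on every array the log2 difference was 0.58 with an adjusted p of 0.0200 in limma, and with the median of those miRNAs it was 0.48 with 0.0230, settings that each called 16.5% of all tested miRNAs higher at that week. With quantile normalization it was 1.08 (adjusted p = 0.0195), and without scaling 1.26 (adjusted p = 0.0534). Over all weeks the log2 difference was -0.03 (SE 0.166, limma adjusted p = 0.863).

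miR-142-5p, the other arm, was detected on every array. Its signals were 70.6, then 17 and 32.5, then 75 and 50.8 with CCL4, and 41.4, 16.7 and 45.1 with olive oil. The groups overlapped, and the 6-week arrays were low under both treatments. The fold was 0.918 at 4 weeks (interval 0.587 to 1.44), 0.945 at 6 weeks (0.641 to 1.39) and 0.907 at 8 weeks (0.616 to 1.34). Over all weeks the log2 difference was -0.11 (SE 0.183), with an adjusted p of 0.604 in limma. The ratio of the 3p to the 5p arm within an array differed between treatments by 0.06 on the log2 scale over all arrays, less than the SD of 0.30 among the CCL4 arrays, and the exact permutation test gave p = 0.75. By week that ratio was 1.40-fold higher, 0.896-fold and 1.02-fold with CCL4.

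The low reading of 6 weeks was shared by the controls. In olive oil mice the scaled signal of miR-142-3p was 67.8, 39.4 and 52.7 in the order of the weeks, and that of miR-142-5p was 8.10, 3.54 and 6.96. With 1 olive oil array per week, a difference between weeks in the controls had no replicate check.

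**Figure D2:**
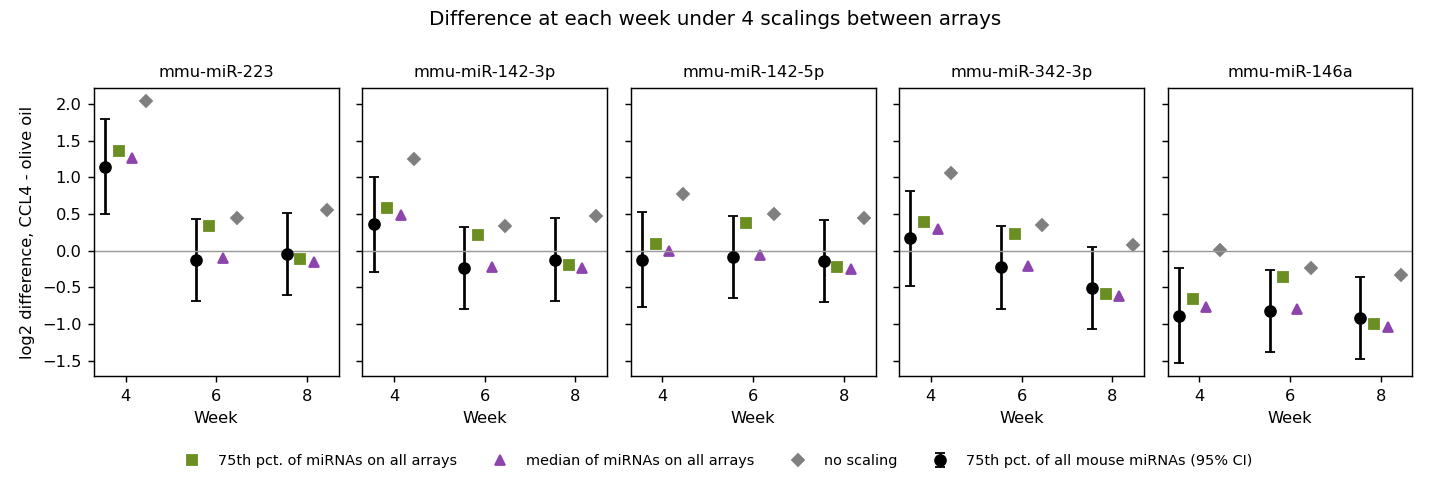
The log2 difference between CCL4 and olive oil arrays is plotted at each week for the 5 tested miRNAs, as black points with 95% intervals for the scaling by the 75th percentile of all mouse miRNAs, and as coloured points for the 75th percentile and the median of the miRNAs detected on all arrays and for no scaling. miR-223 at 4 weeks lay above 0 under each of the 4, between 1.14 and 2.04, whereas the difference of miR-146a at 4 weeks went from -0.88 to 0.01 without scaling, and for the other miRNAs at 6 weeks the direction turned between scalings.

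The lymphoid miRNAs divided by detection. miR-342-3p, which is encoded in an intron of the actin regulator gene Evl, had signals of 107, then 33.2 and 60.5, then 71.6 and 60.6 with CCL4, and 51.2, 35.2 and 62.1 with olive oil. After scaling, the CCL4 array of 4 weeks, at 11.3, lay above its control at 10.03, and the CCL4 arrays of 6 weeks, at 5.09 and 8.02, lay on either side of theirs at 7.48. Both CCL4 arrays of 8 weeks, at 6.50 and 6.97, lay below the olive oil array of that week at 9.58. The fold was 1.12 at 4 weeks (interval 0.719 to 1.76), 0.854 at 6 weeks (0.580 to 1.26) and 0.703 at 8 weeks (0.477 to 1.04), and the last had an adjusted p of 0.451 in limma. Its rank at 8 weeks was 5 from the lowest of 133, in a week when 0.752% of the tested miRNAs were called lower, and without scaling the log2 difference of that week was 0.08. Over all weeks the log2 difference was -0.22 (SE 0.191, limma adjusted p = 0.349). Without replicate 2 of the CCL4 arrays of 6 weeks, the log2 difference at 6 weeks was -0.56, from 1 array per treatment.

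miR-150, which is abundant in mature B and T lymphocytes, was not detected on any array. Its signal ran from 0.60 to 3.06 with CCL4 and from -0.507 to 3.79 with olive oil. The error the software gave was larger than most of these signals, and the lowest detected signal on the 7 arrays other than CCL4 at 4 weeks was 5.59 to 8.16. No fold was taken, since both groups lay below detection.

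The miRNAs linked to NF-κB were read through miR-146a. Its signals were 59 at 4 weeks, 39.3 and 75.6 at 6 weeks, and 95.4 and 57.6 at 8 weeks with CCL4, and 58.5, 64.5 and 92.9 with olive oil. Before scaling the groups overlapped, and at 4 weeks both arrays read nearly the same. In scaled signal the order from the top was olive oil at 8 weeks (14.3), at 6 weeks (13.7) and at 4 weeks (11.5), then CCL4 at 6 weeks (10.01), 8 weeks (8.66 and 6.63), 4 weeks (6.21) and 6 weeks (6.03). All 5 CCL4 arrays lay below all 3 olive oil arrays, which held for 43.6% of the tested miRNAs, and each lay below the control of its own week, which held for 51.9%. No member had all CCL4 arrays above all controls, which held for 9.02%. Neighbours in this order, such as olive oil at 4 weeks and the higher CCL4 array of 6 weeks, differed by less than the CCL4 replicates of 6 weeks did, 1.66-fold.

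Over all weeks miR-146a was lower with CCL4 by 0.87 on the log2 scale (SE 0.190), 0.546-fold, with an adjusted p of 0.0118 in limma. The exact permutation test gave p = 0.0357, the smallest that 56 splits allow. The mean scaled log2 level was 2.88 ± 0.32 (SD, n = 5) with CCL4 and 3.71 ± 0.17 (SD, n = 3) with olive oil. Relative to the median of all tested miRNAs the difference was -0.55, and it ranked 3 from the lowest of 133. Leaving out each array in turn kept the call, with log2 differences of -0.99 to -0.77 and adjusted p of 0.00152 to 0.0339. Without scaling the log2 difference was -0.20 with an adjusted p of 0.620 in limma, with normexp background correction it was -0.13 (adjusted p = 0.465), and without scaling limma called 25.6% of all tested miRNAs higher and 0% lower, and the median difference of all 133 moved by 0.67 to 0.35.

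At each week the fold of miR-146a was similar, each time against 1 olive oil array, and at 4 weeks from 1 CCL4 array. It was 0.542 at 4 weeks (interval 0.346 to 0.848), 0.567 at 6 weeks (0.385 to 0.836) and 0.529 at 8 weeks (0.359 to 0.779), with adjusted p of 0.0204, 0.0474 and 0.0227 in limma. Of all tested miRNAs, 33.1%, 3.01% and 0.752% were called lower in the order of the weeks, and at 8 weeks miR-146a was the 1 miRNA of 133 called lower. From the lowest, its rank was 36, 4 and 1 in the order of the weeks. Both probes gave a fold under 1 after scaling at each week, from 0.522 to 0.645. The calls at the single weeks were lost with 3 other scalings between arrays, with no scaling, and without either CCL4 array of 8 weeks. In the last case only the pair of 6 weeks set the spread, while the log2 differences stayed at -0.88 at 4 weeks and -0.82 at 6 weeks. In the order of the weeks the log2 differences were -0.76, -0.80 and -1.03 with the median, -0.76, -0.57 and -0.92 with quantile normalization, and -0.66, -0.36 and -0.995 with the 75th percentile of the miRNAs found on every array. Without replicate 1 of the CCL4 arrays of 6 weeks, the log2 difference of that week was -0.45, from 1 array per treatment.

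miR-146b and miR-155 were read above detection on the CCL4 array of 4 weeks alone. miR-155, a miRNA of activated macrophages and lymphocytes, had a signal of 13.3 there (software error 2.91), and -0.139 to 4.64 on the other 7 arrays. miR-146b, which shares its seed with miR-146a, had a signal of 10.4 there (software error 2.81), and -0.969 to 4.03 elsewhere. For each, 1 of the 2 probes carried the signal, 12.1 against 1.19 for miR-155 and 9.24 against 1.19 for miR-146b. On that array the software also accepted much weaker signals, down to 0.139, and 26 of the 567 miRNAs, 4.59%, were detected there and on no other array. Relative to the lowest detected signal of the olive oil array of 4 weeks, miR-155 stood at 1.01-fold after scaling and 1.87-fold before it. miR-146b stood at 0.788-fold after scaling and 1.46-fold before it. These ratios leave out the software error, so they are not strict lower limits. Neither miRNA was tested. The partner strands of the members were on the array for 3 of 6, and none was detected.

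Dividing an array by a constant leaves ratios within it as they are. Such ratios were compared for 4 planned pairs of tested members and for 3 further pairs with miR-342-3p added after the values were seen. With exact permutation tests adjusted over the pairs, 0 of the 4 and 0 of the 7 passed. The design is small for this, since at least 3 of the 4 pairs, or 6 of the 7, would have to reach the smallest p for any to pass. At an unadjusted p under 0.05, 2 of the 7 pairs lay there, both at 0.0357, the smallest possible value. A ratio that differs shows that a pair did not move alike and not which miRNA moved.

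miR-146a over miR-223 was lower by 0.96 on the log2 scale with CCL4, and all 5 CCL4 arrays lay below all 3 olive oil arrays (exact p = 0.0357, adjusted p = 0.143 over 4 pairs and 0.125 over 7). The closest arrays were nearly tied, at 0.594 for replicate 2 of CCL4 at 6 weeks and 0.597 for olive oil at 4 weeks. By week the ratio was 0.245, 0.619 and 0.544 of that in the control. miR-146a over miR-142-3p was lower by 0.68, with by-week ratios of 0.422, 0.670 and 0.574 and overlapping groups (exact p = 0.214, adjusted p = 0.286). With week as a factor in a limma fit over the pairs, which removes the differences between weeks, these were the 2 of the 4 pairs called. Over all 7 pairs the same kind of fit, chosen after the values were seen, called 4, the other two being miR-146a over miR-342-3p (-0.65, adjusted p = 0.00475 in limma) and miR-223 over miR-342-3p (0.47, adjusted p = 0.0348). It gave every pair the same SE, 0.192, and the pairs share members. The ratio of miR-223 to miR-142-3p was higher by 0.28 with CCL4 (exact p = 0.143, adjusted p = 0.286), or 1.72, 1.08 and 1.06-fold in the order of the weeks.

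Against the lymphoid miR-342-3p, miR-223 was higher by 0.42 on the log2 scale, with all CCL4 arrays above all olive oil arrays (exact p = 0.0357, adjusted p = 0.125 over 7 pairs). Here too the closest arrays were nearly tied, at 2.10 for replicate 2 of CCL4 at 6 weeks and 2.07 for olive oil at 6 weeks. In the order of the weeks that ratio was 1.96, 1.07 and 1.38 times its control. miR-142-3p over miR-342-3p differed by 0.15 (exact p = 0.464) and miR-146a over miR-342-3p by -0.54 (exact p = 0.143). The 4 other pairs first planned included miR-150 or miR-146b and could not be tested.

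**Figure D3:**
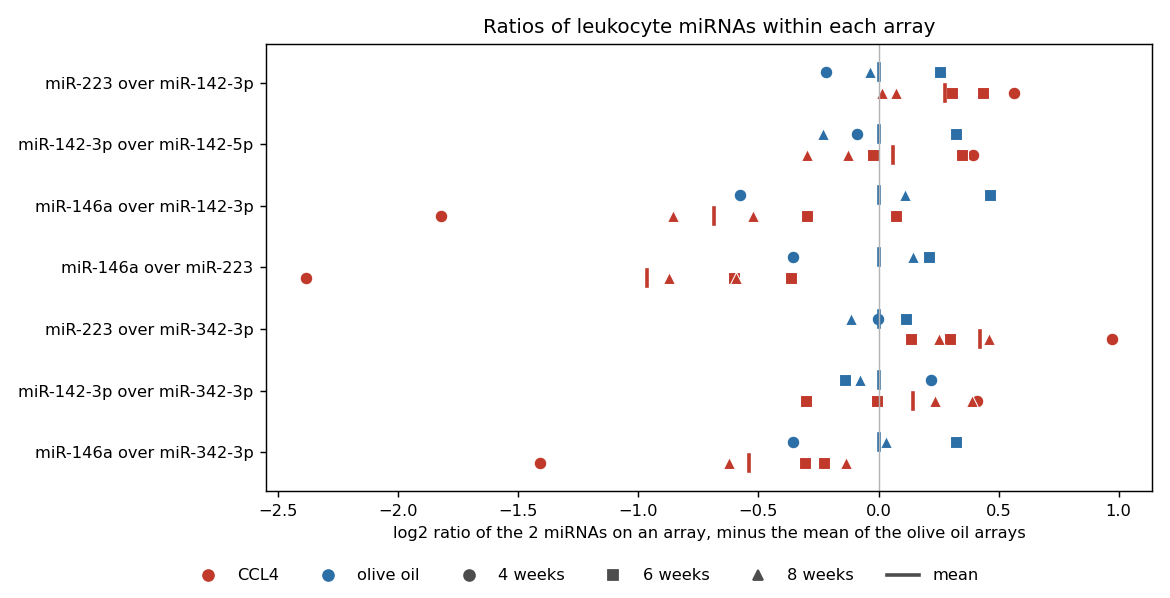
Each point is the log2 ratio of 2 miRNAs on 1 array, minus the mean of that ratio over the 3 olive oil arrays, for 7 pairs, with CCL4 in red, olive oil in blue, the week given by the symbol and means as bars. For miR-146a over miR-223 every CCL4 point lies left of every olive oil point, with the 4-week array farthest, and for miR-223 over miR-342-3p every CCL4 point lies right of them, yet no pair passed after adjustment of the exact test. In both pairs replicate 2 of CCL4 at 6 weeks nearly tied with an olive oil array.

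Across the 8 arrays the scaled log2 levels of 4 members were positively correlated, as a description in which the points share scaling, slide and scan. Pearson's r was 0.883 between the arms of miR-142, 0.873 between miR-142-3p and miR-223, 0.855 between miR-142-3p and miR-342-3p, and 0.778 between miR-223 and miR-342-3p. It was 0.740 between miR-142-5p and miR-342-3p and 0.611 between miR-142-5p and miR-223. miR-146a stood apart, with r of -0.22 to 0.34 to the other 4. Outside the set, the miRNAs most like miR-223 over these arrays were miR-27a (r = 0.956) and miR-1224 (0.954), and those most like miR-146a were miR-455 (0.941) and miR-331-3p (0.932). miR-21 and miR-690 came closest to miR-142-3p (0.900 and 0.883), miR-19a and miR-340-5p to miR-142-5p (0.943 and 0.878), and miR-21 and miR-23a to miR-342-3p (0.929 and 0.844).

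Among other miRNAs linked to leukocyte lineages or their activation, none was called higher with this scaling. Of 19 listed, 18 were on the array, 9 of these were never detected, and 7 were tested. Over all weeks limma called 3 of the 7 lower, where 35.3% of all tested miRNAs were, and 0 higher, also 0 higher before adjustment, with a median log2 difference of -0.23 against -0.32 for all tested. Without scaling the median of the list was 0.44 and limma called 0, while the processed table called 3 higher at that median, and no member of the list was called lower with quantile normalization or with the 75th percentile of the miRNAs found on every array. At the single weeks limma called 0, and before adjustment 2 lower at 4 weeks, 2 lower at 6 weeks and 0 at 8 weeks. The 3 were miR-15a (-0.51, adjusted p = 0.0232) and miR-16 (-0.41, adjusted p = 0.0442), which come from a shared cluster and limit B cell proliferation, and miR-92a (-0.47, adjusted p = 0.0232), of the miR-17 cluster. miR-20a of that cluster was at -0.23, miR-125b-5p, expressed in many cell types, at -0.07, miR-210, known from hypoxia, at -0.10, and miR-21, a widely expressed miRNA induced by inflammation, at -0.08, and none of these passed. Liver cells other than leukocytes also express most of this list.

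Markers of other cell types moved between the same arrays. All 3 erythroid miRNAs were called lower at 4 weeks, against 33.1% of all tested, with a median log2 difference of -1.35, miR-451 among them at 0.391-fold (adjusted p = 0.000501 in limma), and none at 6 or 8 weeks, also before adjustment. With each of 3 other scalings and with none, 0 of the 3 were called at 4 weeks, with medians of -1.23 to -0.46. Their summed scaled signal was 378 to 961 with CCL4 and 537 to 1225 with olive oil. Of 5 hepatocyte miRNAs, 4 were called lower over all weeks and 1 higher (miR-802), against 35.3% and 13.5% of all tested, with a median of -0.60, and miR-122 was at -0.78 (adjusted p = 0.0118). miR-192 and miR-194, from shared clusters, were at -0.66 and -0.60, miR-148a at -0.58 and miR-802 at 0.68. The hepatocyte sum was 2421 to 4283 with CCL4 and 5440 to 6076 with olive oil, without overlap. Without scaling the hepatocyte median was 0.07 and 0 were called lower, and the sums overlapped at 22049 to 42269 and 28592 to 35272. Of 5 mesenchymal miRNAs tested from 6, 4 were called higher, against 13.5% of all tested, with a median of 0.74, miR-214 among them at 1.00 (adjusted p = 0.0118), with miR-199a-5p at 0.55, miR-199b at 0.74 and miR-199b* at 1.46, and the sum was 30.6 to 50.3 with CCL4 and 22.4 to 29.4 with olive oil. Without scaling all 5 were called, with a median of 1.41.

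Of the 2 endothelial miRNAs none was called, 1 passing before adjustment, miR-126-3p, at -0.40 (adjusted p = 0.0671 in limma), with a sum of 136 to 205 with CCL4 and 213 to 225 with olive oil. With the median of the miRNAs found on every array both were called lower, against 51.9% of all tested. Without scaling 0 were called, their median was 0.33, and their sum was above its control on 4 of the 5 CCL4 arrays. Of 5 epithelial miRNAs 2 were tested and 1 was called higher, miR-200b at 0.45 (adjusted p = 0.0291), with a sum of 4.75 to 7.34 against 4.64 to 4.91. The sum of the 8 leukocyte miRNAs was 55.4 to 157 with CCL4 and 79.7 to 117 with olive oil. On the CCL4 array of 4 weeks it was 1.34-fold that of its control while the erythroid sum was 0.390-fold and the hepatocyte sum 0.416-fold, and on the other 4 CCL4 arrays it was 0.696 to 0.975-fold. Without scaling the leukocyte sum was above its control on 4 of the 5 arrays, at 1493 against 598 at 4 weeks, 362 and 586 against 375 at 6 weeks, and 984 and 728 against 659 at 8 weeks. The leukocyte, erythroid and hepatocyte sums were led by 1 miRNA each. On the CCL4 array of 4 weeks before scaling, miR-142-3p gave 827 of 1493, miR-451 4242 of 4541 and miR-122 19389 of 22992. The part of the hepatocyte, mesenchymal and erythroid markers in the results for miR-223 and miR-146a was not tested.

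**Figure D4:**
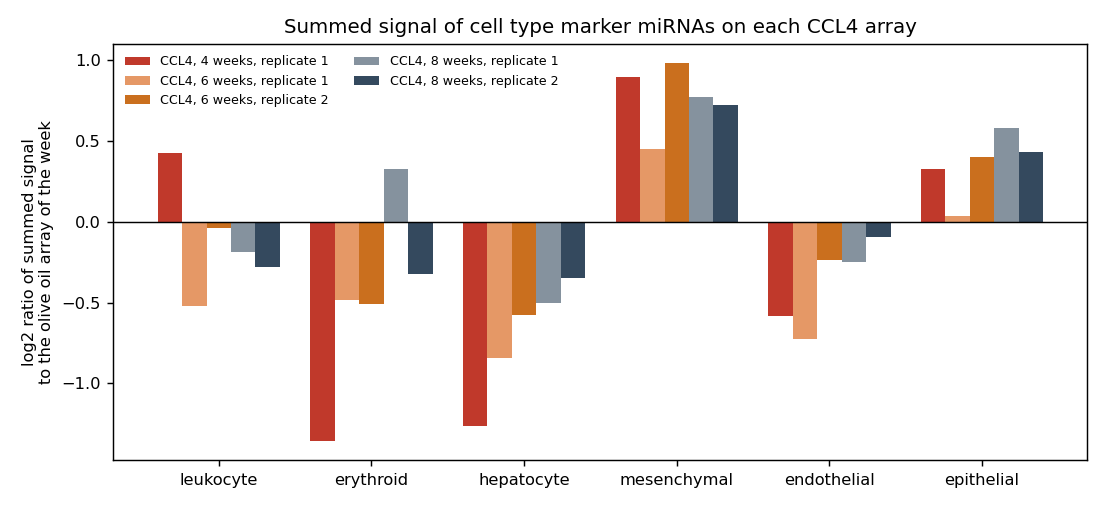
Bars give the log2 ratio of the summed scaled signal of each marker list on a CCL4 array to the sum in the olive oil control of that week, 1 bar per CCL4 array. The leukocyte, erythroid and hepatocyte sums are led by miR-142-3p, miR-451 and miR-122. The leukocyte sum was above its control on the array of 4 weeks and below on the other 4, the hepatocyte sum was below on all 5 and the mesenchymal sum above on all 5, all after scaling by the 75th percentile, without which the leukocyte sum was above its control on 4 of 5 arrays and the hepatocyte sums of the groups overlapped.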

How the data were processed

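Liver miRNA of 8 single-colour Agilent arrays was analysed, with groups taken from the labels. Scanner software, Feature Extraction 10.5.1.1 per the file headers, gave the intensity of each miRNA as deposited: background-subtracted, summed over its spots and not scaled between arrays. The methods name another version of it. The deposited log2 values of the processed file equalled these signals, with signals under 1 set to 1, over 4536 values to within 1.107e-06. Detection flags came from the same software.

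Each signal was scaled by its array's 75th percentile over 567 mouse miRNAs, with a floor of 0.01 after the division, before log2. Each of the 133 miRNAs detected on at least 3 arrays was tested in limma 3.58.1 (R 4.3.3), with week as a factor over all weeks, and with a mean per group for single weeks and the interaction of treatment and week. In the latter fit only the CCL4 pairs of 6 and 8 weeks gave 2 residual degrees of freedom, and the 133 miRNAs were given 1 common spread. The intervals of single weeks used 266 degrees of freedom, pooled over the miRNAs as if these varied independently. Adjusted p is by Benjamini-Hochberg over the 133, with a threshold of 0.05. Exact permutation tests were two-sided, and the pairs were adjusted over 4 or 7 tests. Simulated data were used to test the fit over all weeks. Python 3.11.15 with pandas 2.3.3, scipy 1.17.1 and matplotlib 3.10.9 was used.

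The 8 members and the lists were chosen with earlier results of these data known. All 8 members are named, of the lists those past the threshold over all weeks and 1 defining marker each, all tested miRNAs of the other leukocyte list, and for each tested member the 2 miRNAs with the highest Pearson r. The partner strands of 3 members were not on the array. Alternatives covered scaling, floor, background correction (normexp, offset 50), the processed table, detection filters, an intensity trend, the week term, the replicate number as a block, the methods' t-test (unequal variances) and leaving out each array. The slide position as a block and 3 pairs were added after the data were seen. Human biopsy arrays, qPCR and cell experiments were not analysed here.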

Additional observations from a re-analysis of the deposited data

Results flagged for a closer look

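On the 5 CCL4 arrays, the scaled log2 level of miR-223 on the array of 4 weeks stood apart from the other 4, with a gap of 0.718 of the whole range against a critical value of 0.71. The log2 ratio of miR-146a to miR-223 stood apart on the same array, with a gap of 0.748 of the range. Of 12 such sets of 5 arrays examined, these 2 passed, and chance gives about 1 in 20 for a single set. The sets share members, and both that passed hold miR-223 on the same array, so they do not count as separate observations. The array of 4 weeks is also the only CCL4 array of its week, so a single array and the week cannot be told apart.

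miR-146b and miR-155 were above detection on that array, with signals of 10.4 and 13.3, and on no olive oil array, and they entered no test.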

How the results depend on the processing

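Of 666 alternative values, 531 were graded the same as the main value. For counts of members this grade allowed a small change and did not ask which member was called or in which direction. Some values could not change, such as a difference at a single week when an array of another week was left out. Over all weeks limma called 1 member in the main setting, miR-146a, lower, of 65 miRNAs called in all. With normexp correction, with no filter on detection and with the methods' t-test after Bonferroni adjustment, 0 members were called. These settings called 8, 5 and 1 of all miRNAs, so the loss was not particular to the members. Without scaling 1 member was called, but it was miR-223, higher by 0.92 (limma adjusted p = 0.0253), and the processed table called 2, both higher. Over all tested miRNAs these settings called 34 and 45. Over the 3 weeks 4 differences of members were called, 1 higher and 3 lower, of 81 differences called over all miRNAs tested. With scaling to miRNAs detected everywhere there were 2 of 81 by the 75th percentile and 2 of 192 by the median. Quantile normalization gave 2 of 66, and all of these calls of members were higher. There was 1 of 48 with no scaling and 1 of 48 with the processed table. Normexp gave 0 of 7 and no filter 0 of 36. Leaving out 1 array gave 1 to 5, with 1 left without either CCL4 array of 8 weeks. miR-223 at 4 weeks was 1.14 to 2.04 and lost its call with normexp (adjusted p = 0.0509) and with no filter (0.316). Over all weeks the split of all tested miRNAs was 15.8% higher and 7.52% lower with the percentile over miRNAs detected on all arrays, and 15% and 51.9% with the median.

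The interaction called 0 members. It called 1, miR-223, among miRNAs detected on all 8 arrays (limma adjusted p = 0.0247). The same call came without either CCL4 array of 6 weeks, when only the pair of 8 weeks set the spread. With an array left out the exact test of the pairs could not pass, its smallest p being 0.0571 or 0.0952. The pairs called were 0 by the exact test and 2 with limma and week, unadjusted, with Benjamini-Hochberg adjustment, or with the replicate block, and 4 with limma over all 7 pairs.

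The deviations of replicate 1 at 6 and at 8 weeks had r = 0.0508 over 133 miRNAs. Whether the replicate numbers pair the samples cannot be told from this single comparison. With the replicate block the interaction called 1 member, miR-223 (adjusted p = 0.0337), miR-146a over all weeks was -0.93 (adjusted p = 0.0150), and no other count of members differed.

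Directions turned in 63 of these values, 2 of them of a called difference, miR-146a at 4 weeks, which was 0.011 with no scaling and with the processed table. The rest were differences that had not passed. With no scaling and with the processed table alike, miR-142-3p was 0.34 at 6 weeks, 0.47 at 8 weeks and 0.64 over all weeks, miR-142-5p 0.77, 0.50 and 0.45 at 4, 6 and 8 weeks and 0.55 over all weeks, miR-223 0.45 and 0.55 at 6 and 8 weeks, and miR-342-3p 0.35, 0.0846 and 0.45 at 6 and 8 weeks and over all weeks. With the 75th percentile of miRNAs detected on all arrays, miR-142-3p was 0.22 at 6 weeks and 0.17 over all weeks, miR-142-5p 0.10, 0.38 and 0.0856 at 4 and 6 weeks and over all weeks, miR-223 0.34 and miR-342-3p 0.23 at 6 weeks. With the median, miR-142-5p at 4 weeks was 0.00109. With normexp, miR-142-3p was 0.16, 0.26 and 0.41 at 6 and 8 weeks and over all weeks, miR-142-5p 0.22, 0.0511, 0.11 and 0.12 at 4, 6 and 8 weeks and over all weeks, miR-223 0.15 and 0.21 at 6 and 8 weeks, and miR-342-3p 0.11 and 0.12 at 6 weeks and over all weeks. With quantile normalization, miR-142-3p was 0.0703, 0.0413 and 0.34 at 6 and 8 weeks and over all weeks, miR-142-5p 0.0749 at 4 weeks, miR-342-3p 0.0666 at 6 weeks, and miR-223 over miR-142-3p -0.0632. Leaving out 1 array gave -0.18 to 0.0866 for miR-142-3p and -0.0829 to 0.47 for miR-223 over all weeks, -0.45 to 0.28, -0.37 to 0.12 and -0.56 to 0.10 for miR-142-5p, miR-223 and miR-342-3p at 6 weeks, -0.0937 to 0.0131 for miR-223 at 8 weeks, and -0.0567 to 0.22 for the ratio of the miR-142 arms. The cause of these changes was not tested beyond the shift of the median that each scaling brings. Signals below detection allowed no test of miR-146b, miR-150 and miR-155.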
